A study of Sus scrofa with 6 samples.

Results

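The ficolins FCN1 and FCN2, lysozyme (LYZ), complement component C3 and the complement regulator CD55 are 5 genes of soluble or membrane-bound innate defence. They were chosen by name, with earlier results of the same libraries known, from 4122 genes listed in the count and FPKM tables of 3 pig tissues. The tissues were lymph node, spleen and thymus. They came from RAG2 biallelic knockout pigs and from wild-type littermates, all 3 months old. Each tissue and genotype has 1 library, 6 in all, and the labels do not say whether the 3 libraries of a genotype came from the same animal or from pooled animals. The labels name no agent given to either genotype, and the series title describes the immunodeficient pigs as carrying a deletion of a single amino acid. RAG2 is needed to assemble antigen receptor genes, so the comparison concerns innate genes in lymphoid organs of animals in which T and B cells cannot mature normally.

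Ficolins are soluble lectins that bind sugars on microbes and start the lectin pathway of complement through attached serine proteases, the MASPs. In humans FCN1 (M-ficolin) is made by monocytes and neutrophils, and FCN2 (L-ficolin) is made mainly by the liver. All complement pathways meet at C3, whose cleavage coats a target and leads on to the membrane attack complex. C3 in plasma is made largely by the liver, and macrophages, fat cells and stromal cells make it locally. CD55, or decay-accelerating factor, is a membrane-anchored protein that speeds the break-up of C3 convertases on the body's own cells. Lysozyme cleaves bacterial cell wall peptidoglycan and is a product of macrophages and neutrophils.

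FCN2 (chromosome 1, 274106276 to 274111970 in Sscrofa11.1) and FCN1 (chromosome 1, 274125666 to 274132917) are neighbours, 13695 bases apart with no annotated gene between them. C3 lies on chromosome 2 (72431470 to 72471622), LYZ on chromosome 5 (33612593 to 33618953) and CD55 on chromosome 9 (67933069 to 67960380). The ficolins are paralogs, and how fragments shared by similar genes were assigned is not given in the sources used here. Of 30 count values, 5 genes in 6 libraries, 29 were within 0.02 of a whole number of fragments. The largest distance from one was 0.042, so no fragment divided between the ficolins was visible. These values cannot show whether whole fragments were assigned to the wrong ficolin or left out.

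Fragments assigned to the listed genes numbered 1922562 to 2541724 per library, and the 10 most abundant genes took 14.5 to 17.0% of them. Tissue markers followed the labels in part. RAG-1, the pig table's name for RAG1, had 7134 and 3435 FPKM (fragments per kilobase of transcript, scaled to library depth) in the knockout and wild-type thymus and at most 10.1 FPKM elsewhere. The homing chemokine CCL21 had 1754 FPKM in knockout and 2438 FPKM in wild-type lymph node and at most 336 FPKM elsewhere. The red-cell gene HBB was highest in spleen, at 18970 FPKM in the knockout and 41410 FPKM in wild type. Other markers crossed tissues. The lymph node chemokine CCL19 had 2097 FPKM in the knockout spleen and 109 FPKM in the wild-type spleen, against 2589 and 2163 FPKM in knockout and wild-type lymph node. CD5L, a macrophage gene listed for spleen, had 456 FPKM in the knockout lymph node, above the wild-type spleen at 365 FPKM. RAG2 was detected in the knockout thymus at 1072 FPKM, against 606 FPKM in wild type, so its transcript level does not check the genotype label. Markers of several cell types differed between genotypes. All 9 adipocyte markers were higher in the knockout lymph node, where 15.3% of all measured genes were higher. Their summed level was 9353 against 157 FPKM in wild type, and HBB stood at 6738 against 376 FPKM in that tissue. In thymus HBB stood at 4782 FPKM in the knockout and 912 FPKM in wild type. Since every group is 1 library, no difference has a replicate check and no p-value is given. In bulk tissue, fewer cells of a type and less RNA per cell cannot be told apart.

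A gene is called higher or lower in the knockout where log2 of the knockout level over the wild-type level, after adding 1 FPKM to both, is 1 or more in size. Only genes with at least 1 FPKM in 1 of the 2 libraries count as measured. Folds are ratios of scaled fragments and carry 95% Clopper-Pearson intervals for counting error alone. All 5 genes were measured in each tissue, FCN2 in thymus through the knockout library alone. In lymph node FCN2 was called higher and CD55 lower. Of 2910 genes measured there 15.3% were higher and 10.3% lower. In spleen FCN2, LYZ and C3 were called higher and FCN1 lower. The background there was 8.88% higher and 10% lower among 2849 genes. In thymus FCN1, FCN2 and LYZ were called higher and none lower. The background there was 15.2% higher and 10.9% lower among 2908 genes. The genes were picked for such differences, so these counts are a description and nothing is read from them. Across the 3 tissues, FCN2 was the only one of the 5 genes called in the same direction in each.

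**Figure D1:**
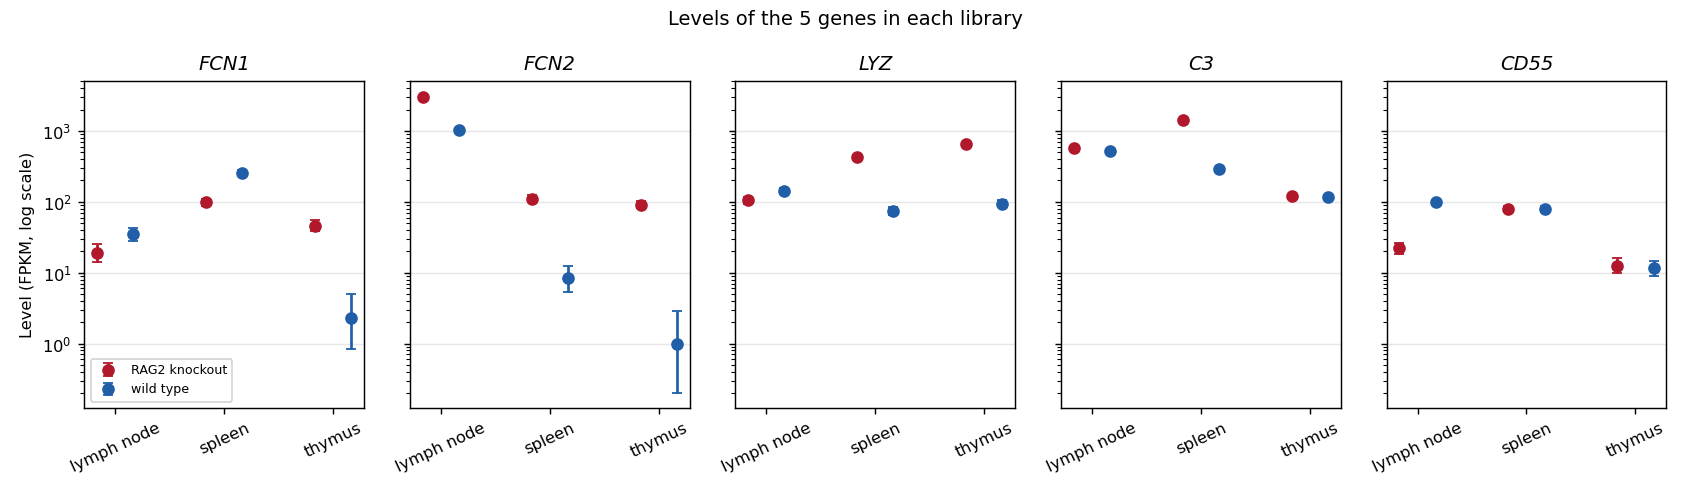
Level in FPKM (log scale) of FCN1, FCN2, LYZ, C3 and CD55 in each of the 6 libraries, with the knockout left of wild type in each tissue; points are single libraries and bars are 95% Poisson intervals of the fragment count. FCN2 is highest in the knockout lymph node at 3062 FPKM, LYZ in the knockout thymus at 655 FPKM, and CD55 in the wild-type lymph node at 98.7 FPKM.

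FCN2 was the most variable of the 5 genes, with levels 3150-fold apart between its highest and lowest library. In lymph node it had 3062 FPKM (9480 fragments) in the knockout and 1024 FPKM (3015 fragments) in wild type. The fold was 3.01 (interval 2.89 to 3.14) and the log2 ratio 1.58. At these levels FCN2 ranked 45th of the 4122 listed genes in the knockout lymph node and 103rd in the wild-type lymph node. It was thus among the most abundant of the listed genes there in both genotypes.

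In spleen FCN2 had 111 FPKM (396 fragments) in the knockout and 8.28 FPKM (25 fragments) in wild type, a fold of 13.6 (9.05 to 21.2) and a log2 ratio of 3.60. In thymus it had 91.1 FPKM (288 fragments) in the knockout and 0.972 FPKM (3 fragments) in wild type. The ratio of fragments was 93.7 (31.8 to 457), a wide interval because the wild-type library held 3 fragments. FCN2 was thus higher in the knockout in all 3 tissues, with the smallest fold where the wild-type level was highest. The knockout spleen and thymus, whose FPKM intervals overlapped, both stayed below the wild-type lymph node.

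Some liver and plasma protein genes were higher beside FCN2, and albumin was at or near 0. Albumin (ALB), the main plasma protein gene of liver, had 5, 0 and 2 fragments in knockout lymph node, spleen and thymus, against 0, 10 and 8 fragments in wild type. APOA2 was at 0 in every library. Of 13 liver and plasma protein genes 10 were found, and 3, 4 and 3 of them were measured in lymph node, spleen and thymus. Their sum was 303, 391 and 1056 FPKM in the knockout and 118, 416 and 83.2 FPKM in wild type, carried mostly by APOA1 in lymph node and spleen. In the knockout thymus it was carried by haptoglobin (HP), at 1020 against 51.7 FPKM in wild type. In lymph node HP was 10.4-fold higher in the knockout (36.5 against 3.54 FPKM in wild type) and APOA1 2.37-fold higher (264 against 112 FPKM). In spleen none of the 4 was higher and 2 were lower, where 10% of all measured genes were lower. The part of liver-type RNA in the FCN2 values was not tested.

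FCN1 followed another order. Its highest level was in the wild-type spleen. In spleen it had 98.9 FPKM (299 fragments) in the knockout and 257 FPKM (659 fragments) in wild type, a 2.57-fold lower level (2.24 to 2.96) with a log2 ratio of -1.37. In lymph node it had 19.0 FPKM (50 fragments) in the knockout and 35.2 FPKM (88 fragments) in wild type. The log2 ratio of -0.86 was short of a call, while the counting interval (1.29 to 2.66-fold lower) left out equal levels.

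In thymus FCN1 went the other way, with 46.2 FPKM (124 fragments) in the knockout and 2.29 FPKM (6 fragments) in wild type. The fold was 20.2 (9.01 to 56.0) and the log2 ratio 3.84. The order over the 6 libraries ran from wild-type spleen through knockout spleen, knockout thymus, wild-type lymph node and knockout lymph node to wild-type thymus. The intervals of the knockout thymus and the wild-type lymph node overlapped, and no other neighbours in that order did. Levels set across tissues come from tables that were calculated separately for each tissue.

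**Figure D2:**
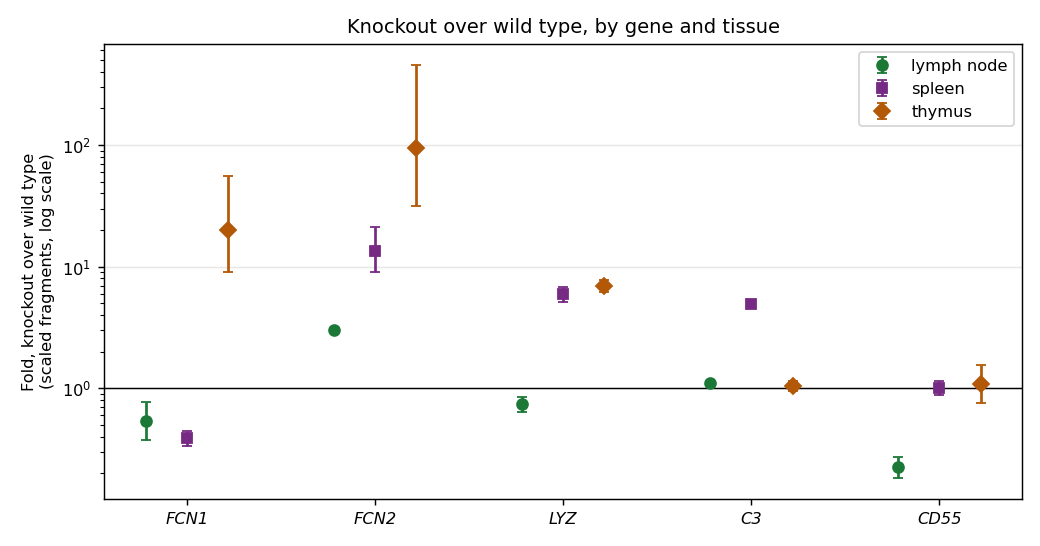
Ratio of scaled fragments, knockout over wild type (log scale), for each gene in lymph node, spleen and thymus; bars are 95% Clopper-Pearson intervals of 2 libraries and the line marks equal levels. FCN2 lies above the line in all 3 tissues, from 3.01 to 93.7, while FCN1 lies below it in lymph node and spleen and at 20.2 in thymus.

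The balance between the neighbouring ficolins differed between genotypes in spleen. Compared per transcript length within a library, FCN2 stood at 1.13 times FCN1 in the knockout spleen (0.966 to 1.31), while in the wild-type spleen FCN1 stood at 31.1 times FCN2 (20.9 to 48.4). Their summed level was 210 FPKM in the knockout spleen and 266 FPKM in the wild-type spleen. FCN2 made up 53.0% of that sum in the knockout and 3.12% in wild type.

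In lymph node FCN2 prevailed in both genotypes, at 161 times FCN1 in the knockout (122 to 217) and 29.1 times in wild type (23.5 to 36.4). In the knockout thymus FCN2 was at 1.97 times FCN1 (1.59 to 2.45). In the wild-type thymus both genes were close to the detection limit, 3 and 6 fragments, and the ratio of 0.424 had an interval that included equality (0.0687 to 1.99). In lymph node and spleen the FCN2 share was therefore larger in the knockout. In thymus the observed share was also larger in the knockout, but the 2 intervals overlapped and the wild-type ratio rests on those few fragments.

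**Figure D3:**
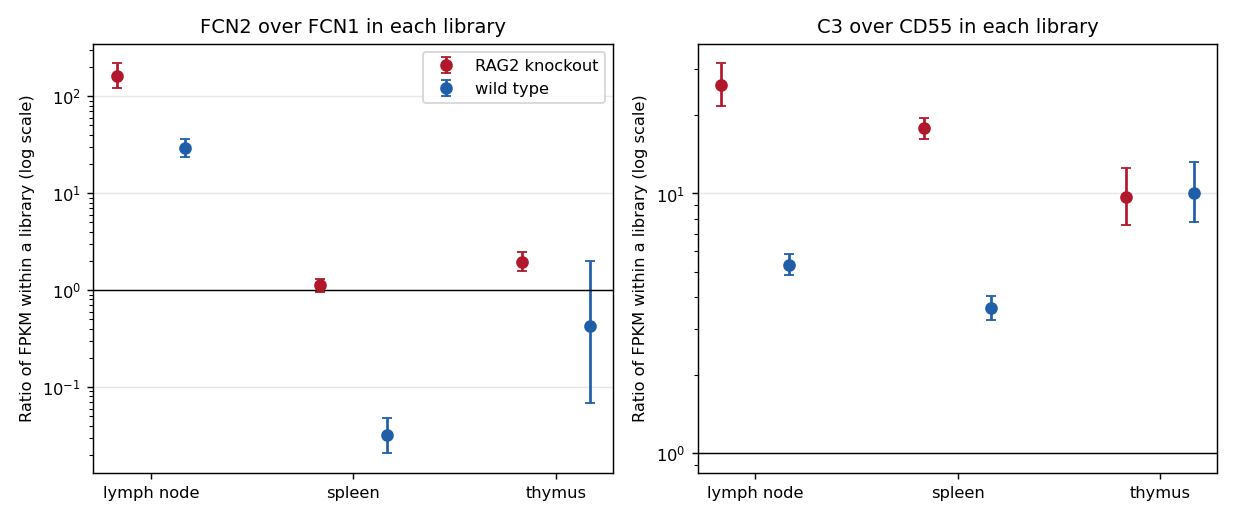
Ratio of FPKM within each library (log scale) of FCN2 over FCN1 on the left and of C3 over CD55 on the right, with the knockout left of wild type in each tissue; bars are 95% Clopper-Pearson intervals and the line marks equal levels. FCN2 over FCN1 is 1.13 in the knockout spleen and 0.0322 in the wild-type spleen, and C3 over CD55 is 9.67 in the knockout thymus and 10.02 in the wild-type thymus.

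LYZ was higher in the knockout in spleen and thymus and not in lymph node. In thymus it had 655 FPKM (2231 fragments) in the knockout and 94.5 FPKM (314 fragments) in wild type, a fold of 6.94 (6.16 to 7.83). In spleen it had 432 FPKM (1655 fragments) in the knockout and 73.5 FPKM (239 fragments) in wild type, a fold of 5.93 (5.18 to 6.82). The log2 ratios were 2.78 and 2.54. LYZ ranked 178th of the listed genes in the knockout thymus and 1049th in the wild-type thymus.

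In lymph node LYZ had 105 FPKM (351 fragments) in the knockout and 144 FPKM (455 fragments) in wild type. It was 1.36-fold lower (1.18 to 1.56) with a log2 ratio of -0.44, short of a call. Wild-type LYZ levels were within 1.95-fold of each other across the 3 tissues, while the knockout levels were 6.22-fold apart. The 2 highest LYZ levels were those of the knockout thymus and spleen, and the FPKM intervals of the knockout lymph node and wild-type thymus overlapped.

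Genes that sense or attack bacteria and their walls were higher or not called, with the exception of TLR2 in lymph node. Of 17 such genes, LYZ left out, 13 were found. In spleen 5 of 8 measured were higher and 0 lower (median log2 ratio 1.10, against -0.02 over all measured genes). Of 7 measured in thymus 4 were higher and 0 lower (median 1.52, against 0.00 over all measured genes). Of 9 in lymph node 2 were higher and 1 lower (median 0.18, against 0.00). Over all measured genes 8.88% were higher in spleen, 15.2% in thymus and 15.3% in lymph node, where 10.3% were lower. The lymph node counts were thus near the background. The peptidoglycan-binding protein PGLYRP1 had 20.1 FPKM (35 fragments) in the knockout spleen and 0.684 FPKM (1 fragment) in wild type. In thymus it had 54.9 FPKM (84 fragments) in the knockout and 2.01 FPKM (3 fragments) in wild type. It also belongs to the neutrophil list given next.

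Lactoferrin (LTF), an iron-binding antimicrobial protein of neutrophil granules, was 273-fold higher in the knockout thymus, with 559 fragments against 2 in wild type. CD14, the co-receptor for bacterial lipopolysaccharide, was 3.67-fold higher in the knockout spleen and 5.17-fold higher in the knockout thymus. CD14 is also counted in the monocyte and macrophage list given below. In lymph node the lipoprotein sensor TLR2 was 2.58-fold lower in the knockout, at 49.1 FPKM against 127 FPKM in wild type. The spleen count includes NOD1, called on 4 and 0 fragments, and the median there was 0.64 once genes without fragments in 1 library were set to their bound. In lymph node both higher genes, NOD1 and PGLYRP4, had 0 fragments in wild type and fewer than 10 in the knockout.

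Markers of phagocytes also differed between genotypes. The neutrophil markers, 6 of 11 found, summed to 601 FPKM in the knockout and 49.5 FPKM in wild type in lymph node, to 1771 and 41.5 FPKM in spleen, and to 2161 and 132 FPKM in thymus. Of the 6 markers 4, 6 and 5 were called higher in lymph node, spleen and thymus, and 1, the protease MMP9, was lower in lymph node. Over all measured genes 15.3%, 8.88% and 15.2% were higher in those tissues, and 10.3% were lower in lymph node. RETN was at 0 in the wild-type lymph node and thymus. The summed level of the neutrophil markers was thus higher in all 3 knockout tissues. In lymph node the markers did not move together. MMP9 had 2.92 FPKM in the knockout and 30.6 FPKM in wild type there, and PGLYRP1, with 11 and 9 fragments, was not called.

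Monocyte and macrophage markers, 11 of 16 found, summed to 5297 FPKM in the knockout and 3325 FPKM in wild type in lymph node. They summed to 5902 and 5425 FPKM in spleen and to 1382 and 395 FPKM in thymus. Of 10 measured in each tissue, 3 were higher and 0 lower in lymph node, 2 higher and 2 lower in spleen, and 7 higher and 1 lower in thymus. Over all measured genes 15.3% were higher and 10.3% lower in lymph node, 8.88% and 10% in spleen, and 15.2% and 10.9% in thymus. CD163 was at 0 in every library and FCGR1A in the wild-type lymph node and spleen.

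In spleen CD14 was higher while the macrophage receptors SIGLEC-1 and MSR1 were 16.0-fold and 7.06-fold lower, so the spleen markers did not move together. In thymus MSR1 was 6.83-fold higher and the scavenger receptor MARCO 10.4-fold lower, with 6 fragments in the knockout and 61 in wild type. The part of either cell type in the LYZ and ficolin values was not tested.

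**Figure D4:**
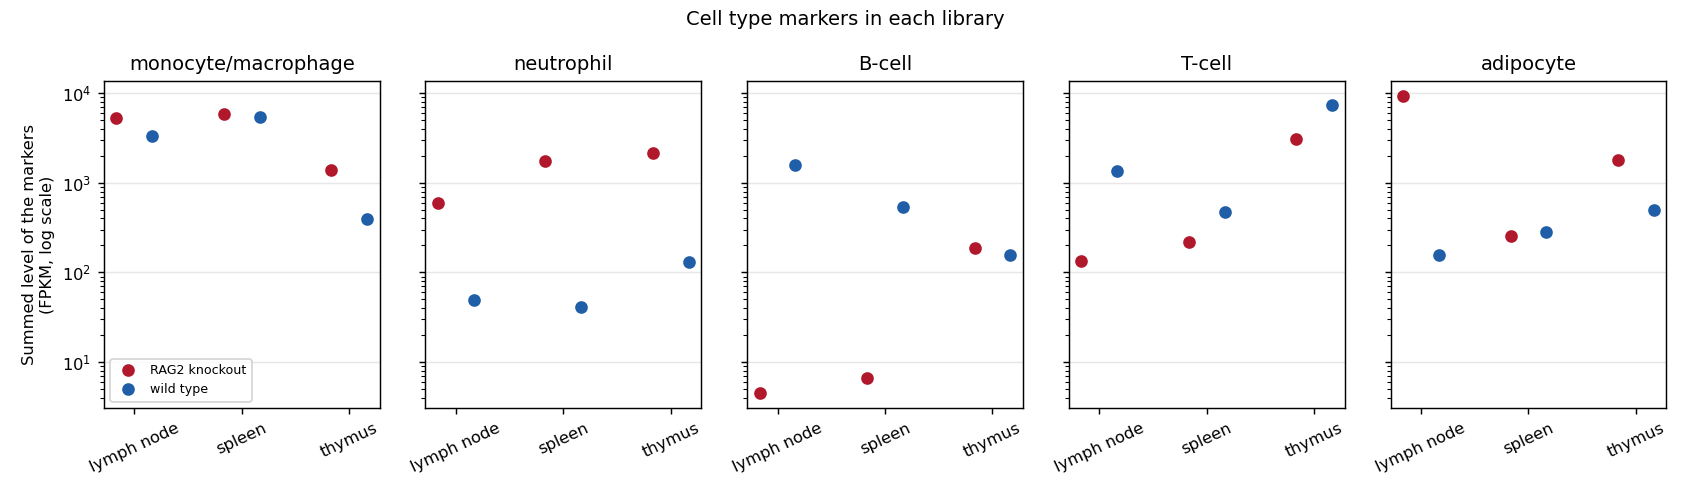
Summed FPKM (log scale) of the listed markers of monocytes and macrophages, neutrophils, B cells, T cells and adipocytes in each library, with the knockout left of wild type in each tissue; each point is 1 library. The neutrophil sum is higher in all 3 knockout tissues, and the adipocyte sum reaches 9353 FPKM in the knockout lymph node.

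C3 differed between genotypes mainly in spleen. There it had 1426 FPKM (12438 fragments) in the knockout and 289 FPKM (2148 fragments) in wild type, a fold of 4.96 (4.74 to 5.19) and a log2 ratio of 2.30. It ranked 91st of the listed genes in the knockout spleen and 341st in the wild-type spleen. The knockout spleen thus held the highest C3 level of the 6 libraries.

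In lymph node C3 had 578 FPKM (4394 fragments) in the knockout and 525 FPKM (3804 fragments) in wild type. The fold of 1.11 (1.06 to 1.15) left out equal levels by counting error alone and was far from a call. In thymus C3 had 121 FPKM (944 fragments) in the knockout and 115 FPKM (879 fragments) in wild type, a fold of 1.05 (0.955 to 1.15) with an interval that included equality. Both lymph node levels lay above the wild-type spleen, and both thymus levels were the lowest.

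Adipocyte markers also differed between genotypes. The 9 found, of 10, summed to 9353 FPKM in the knockout and 157 FPKM in wild type in lymph node, and to 1814 and 498 FPKM in thymus, where C3 was not called. In spleen, where C3 was called higher, they summed to 255 and 286 FPKM, and PLIN1, LEP and DGAT2 were at 0 in the knockout. Most of that spleen sum was PPARG, at 230 FPKM in the knockout and 245 FPKM in wild type. ADIPOQ had 5.2 and 10.5 FPKM there. DGAT2 was also at 0 in the wild-type lymph node. The part of fat cells in the C3 values was not tested.

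CD55 was lower in the knockout lymph node and close to equal elsewhere. In lymph node it had 22.1 FPKM (119 fragments) in the knockout and 98.7 FPKM (506 fragments) in wild type, a 4.45-fold lower level (3.63 to 5.47) with a log2 ratio of -2.11. In spleen it had 80.2 FPKM (495 fragments) in the knockout and 79.7 FPKM (419 fragments) in wild type, a fold of 1.01 (0.886 to 1.16). In thymus it had 12.5 FPKM (69 fragments) in the knockout and 11.5 FPKM (62 fragments) in wild type, a fold of 1.09 (0.76 to 1.56).

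The wild-type lymph node had the highest CD55 level and both thymus libraries the lowest. Overlapping intervals joined the 2 spleen libraries to each other and the 2 thymus libraries to each other. The thymus interval does not exclude a fold as large as 1.56 in the knockout.

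Lymphocyte markers were lower in the lymph node along with CD55, and in spleen without it. All 5 B-cell markers found, of 9, were lower in the knockout lymph node and spleen, with summed levels of 4.50 against 1585 FPKM in wild type in lymph node and 6.63 against 541 FPKM in spleen. Of the 10 T-cell markers found, of 12, 9 were lower in lymph node (summed level 134 against 1361 FPKM in wild type) and 6 in spleen (217 against 477 FPKM). In thymus 3 B-cell and 7 T-cell markers were lower, with T-cell markers at 3105 FPKM in the knockout and 7487 FPKM in wild type and B-cell markers at 186 and 156 FPKM. Over all measured genes 10.3%, 10% and 10.9% were lower in lymph node, spleen and thymus. POU2AF1 was at 0 in the knockout lymph node and spleen. The part of lymphocytes in the CD55 value of the lymph node was not tested.

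C3 and its membrane regulator therefore stood in different proportions. Per transcript length, C3 was at 26.1 times CD55 in the knockout lymph node (21.8 to 31.6) and 5.32 times in the wild-type lymph node (4.84 to 5.84). In spleen C3 was at 17.8 times CD55 in the knockout (16.3 to 19.5) and 3.62 times in wild type (3.26 to 4.03). In thymus it was at 9.67 times in the knockout (7.57 to 12.5) and 10.02 times in wild type (7.74 to 13.2). The ratio was larger in the knockout through lower CD55 in lymph node and through higher C3 in spleen, and the thymus intervals overlapped. This ratio was chosen after the values were seen.

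The remaining complement genes were counted by role. Of 50 genes in lists for recognition, convertases, terminal components, regulators and receptors, with FCN1, FCN2, C3 and CD55 left out, 28 were found in the tables and 21 measured in each tissue. In lymph node 8 were higher and 3 lower (median log2 ratio 0.60), where 15.3% of all measured genes were higher and 10.3% lower. In spleen 4 were higher and 2 lower (median 0.34), beside 8.88% and 10% over all measured genes, so the lower count was near the background. In thymus 13 were higher and 1 lower (median 1.27, or 1.10 with genes lacking fragments in 1 library set to their bound), beside 15.2% and 10.9%. The median over all measured genes was 0.00 in lymph node, -0.02 in spleen and 0.00 in thymus.

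Among recognition molecules, the C1q chains that start the classical pathway were called in thymus and in neither other tissue. C1QA was 2.15-fold, C1QB 2.46-fold and C1QC 2.48-fold higher in the knockout thymus. C1QC, at 11960 FPKM in the knockout spleen and 14990 FPKM in the wild-type spleen, was the most abundant of them there. The long pentraxin PTX3, which binds microbes and C1q, was higher in all 3 knockout tissues, with 64.0, 8.48 and 29.8 FPKM in knockout lymph node, spleen and thymus, against 3.20, 2.54 and 0.763 FPKM in wild type.

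The proteases that ficolins carry did not share one direction. MASP2 was 5.73-fold higher in the knockout spleen (18.7 against 3.28 FPKM in wild type), where FCN2 was also higher, and in lymph node it had 32.7 FPKM in the knockout and 58.4 FPKM in wild type, not called. MASP1 had 6 fragments in the knockout lymph node and 29 in the wild-type lymph node, a 5.05-fold lower level. In spleen MASP1 had 25 fragments in the knockout and 24 in wild type and was not called. In thymus MASP2 had 4 and 5 fragments and MASP1 2 and 6 in knockout and wild type. The mannose-binding lectins MBL1 and MBL2, which use the same proteases, were at 0 in every library. FCN3 and the collectins COLEC10, COLEC11 and COLEC12 were not analysed here.

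Convertase partners of C3 moved less than C3 in spleen. Factor B (CFB), which forms the alternative convertase with C3, was 2.56-fold higher in the knockout lymph node and 2.31-fold higher in the knockout spleen. C2 was called only in thymus, 2.17-fold higher in the knockout. C4 was called in no tissue and had 1035 FPKM in the knockout lymph node, against 827 FPKM in wild type. Of terminal components C7 was 3.92-fold higher in the knockout lymph node, at 1036 FPKM against 265 FPKM in wild type, and C8A was at 0 in every library. C6 in lymph node (6 and 0 fragments in knockout and wild type) and C5 (1 and 0) and CRP (9 and 0) in thymus were called on fewer than 10 fragments.

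Regulators other than CD55 were higher in part in lymph node and thymus. CD59, a membrane protein that blocks the attack complex, was 2.81-fold higher in the knockout lymph node, where CD55 was lower, and 4.33-fold higher in the knockout thymus. The C1 inhibitor SERPING1 was 2.48-fold higher in lymph node and 3.73-fold higher in thymus, and thrombomodulin (THBD) 3.44-fold and 4.07-fold higher. THBD is typical of endothelium, whose markers (4 of 7 found) numbered 2 higher in lymph node, 0 in spleen and 4 in thymus. Over all measured genes 15.3%, 8.88% and 15.2% were higher in those tissues. The summed level of the endothelial markers in lymph node was 2256 FPKM in the knockout and 1246 FPKM in wild type. In spleen it was 425 and 341 FPKM, and in thymus 226 and 92.0 FPKM. The part of endothelium in these values was not tested.

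In spleen, where C3 was higher, the C4-binding protein chain C4BPA, a soluble regulator, was 4.87-fold lower, at 536 FPKM in the knockout and 2658 FPKM in wild type. Clusterin (CLU) was lower in the knockout lymph node (2.05-fold) and thymus (2.36-fold). CD46, a membrane cofactor for C3b cleavage, had at most 8 fragments in any library, and its calls in lymph node and thymus rest on 1 to 5 fragments. Of the receptors, VSIG4, a macrophage receptor for C3 fragments, was higher in every tissue, at 6.18-fold in lymph node, 7.71-fold in spleen and 4.48-fold in thymus. The anaphylatoxin receptor C5AR1 was 2.48-fold higher in the knockout thymus.

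**Figure D5:**
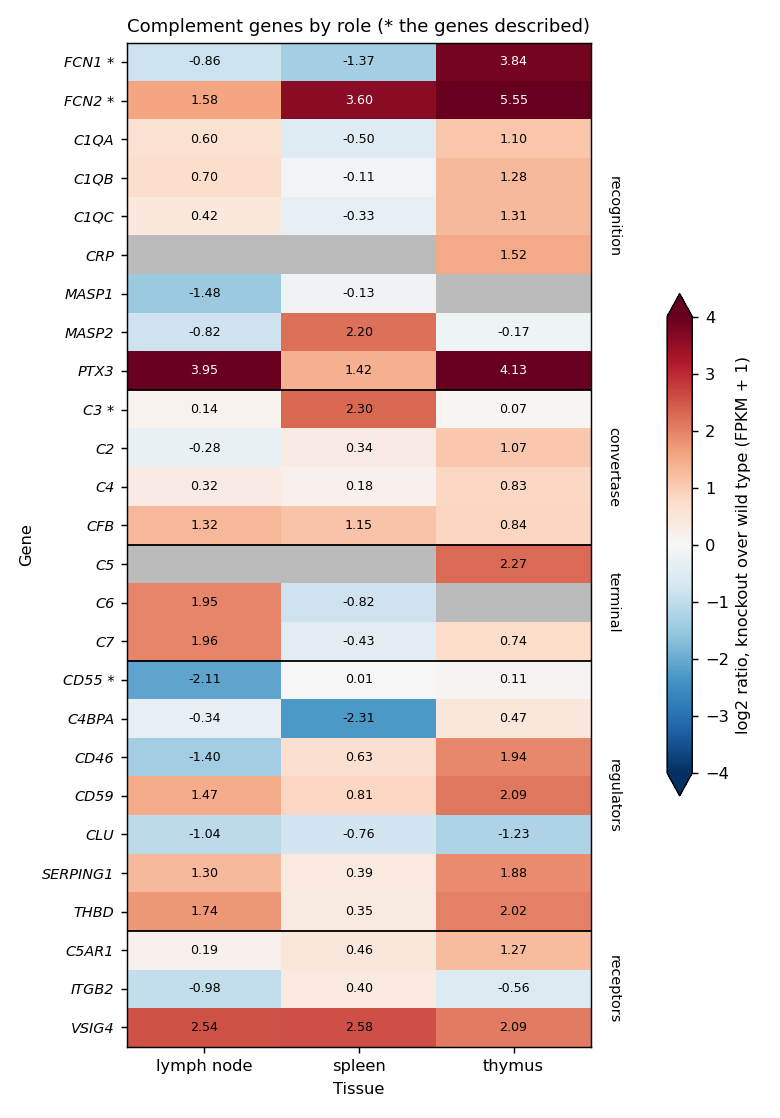
Log2 ratio of knockout over wild type (FPKM with 1 added) for 26 complement genes by role, in lymph node, spleen and thymus; red is higher and blue lower in the knockout, grey marks genes below 1 FPKM in both libraries, and colours saturate at an absolute value of 4. FCN2, PTX3 and VSIG4 are called higher in all 3 tissues, and thymus has the most called genes.

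The genes with the most similar pattern over the 6 libraries were sought among 2166 genes with at least 5 FPKM in 1 library and a range of at least 1 on the log2 scale. Pearson's r of log2(FPKM + 1) was highest with SPATA6 for FCN1 (0.98), with SFRP5 for FCN2 (0.98), with PGLYRP1 for LYZ (0.95), with TNIP1 for C3 (0.98) and with C1QTNF6 for CD55 (0.97). The next were HEY2 (0.95) and SNCG (0.94) for FCN1, CYSLTR2 (0.97) and CCL14 (0.96) for FCN2, ADPRH (0.94) for LYZ, HTR7 (0.98) and SLA-5 (0.97) for C3, and RPS6KA1 (0.96) and CCND2 (0.95) for CD55. These values rest on 6 libraries that share tissues and genotypes, and are descriptions only. Among the 5 genes themselves r lay between -0.14 for LYZ and CD55 and 0.72 for C3 and CD55, with 0.14 for the 2 ficolins. The values above were picked as the highest among 2166 genes, so pairs not picked this way cannot be set against them.

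SFRP5, a secreted Wnt antagonist, had 40.1, 8.29 and 6.76 FPKM in knockout lymph node, spleen and thymus, against 31.1, 1.35 and 1.32 FPKM in wild type. Like FCN2 it was highest in lymph node and higher in each knockout tissue, over a narrower range. PGLYRP1 had 7.28, 20.1 and 54.9 FPKM in knockout lymph node, spleen and thymus, against 6.30, 0.684 and 2.01 FPKM in wild type. It shared with LYZ the high knockout spleen and thymus and a lymph node with little difference between genotypes. PGLYRP1 rests on few fragments in 4 libraries: 1 in the wild-type spleen, 3 in the wild-type thymus, and 11 and 9 in knockout and wild-type lymph node.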

How the data were processed

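Per the labels' protocols, RNA was isolated with the RNeasy Mini Kit and sequenced from TruSeq stranded total RNA libraries. The submitters' processing notes name FastQC 0.11.9, Trimmomatic 0.39, STAR 2.7.9a, Cufflinks 2.2.1 and Sscrofa11.1, without order or settings. FPKM values were deposited by the authors, 1 table per tissue. The deposited count tables hold estimated counts multiplied by 1 factor per library, read from the values: 97.0 to 99.2% were whole within 0.02 once divided by the commonest positive value of the library, and were then rounded to fragments.

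The members and gene lists were chosen with earlier results of these data known. Of 4122 symbols, 3721 matched current Sscrofa11.1 symbols, 226 older names and 175 none. List genes were matched by symbol, older name or spelling, and CELA2A was not accepted for ELANE. Named list genes are up to 4 called genes per list and tissue with at least 10 fragments in 1 library, ordered by absolute log2 ratio; their values in other tissues may follow. Genes at 0 in a library are also named. A few genes that met these rules are not reported here. C4 and genes called on fewer than 10 fragments were named after their values were seen. A bound is set against 3 fragments per library. Intervals were tested on simulated counts. Alternatives used other pseudocounts, minimums, thresholds and scalings (edgeR 4.0.16, DESeq2 1.42.0). Python 3.11.15, numpy 2.4.6, pandas 2.3.3, scipy 1.17.1, matplotlib 3.10.9 and R 4.3.3 were used.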

Additional observations from a re-analysis of the deposited data

Results flagged for a closer look

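FCN1 and LYZ lay on opposite sides of equal levels in different tissues, with counting intervals that left out equality on both sides. For FCN1 the knockout's log2 ratio to wild type was 3.84 in thymus, against -0.86 in lymph node and -1.37 in spleen, differences of 4.70 and 5.21. For LYZ it was 2.54 in spleen and 2.78 in thymus, against -0.44 in lymph node, differences of 2.98 and 3.22. With 1 library per tissue and genotype these differences were not tested.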

How the results depend on the processing

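No fit of genotype with tissue as a block was run: the genes were chosen from these differences, and the 3 tissues may share an animal. Every log2 ratio of the 5 genes kept its direction and its side of the threshold of 1 under the other pseudocounts, scalings and centring, except that CD55 in spleen, near 0, ran from -0.03 to 0.025. A pseudocount of 5 FPKM brought FCN1 in thymus to 2.81 and FCN2 to 3.13 in spleen and 4.01 in thymus. With a threshold of 2, FCN2 in lymph node and FCN1 in spleen were no longer called, so 0 of the 5 genes were higher in lymph node and 0 lower in spleen. Over all genes that threshold left 163 higher and 112 lower in lymph node, 79 and 76 in spleen, and 110 and 105 in thymus. With a pseudocount of 5 FPKM the numbers were 166 and 160 in spleen and 272 and 183 in thymus. Scaling to the fragment total moved the median of all genes in thymus to 0.12. Of 1020 values for list counts under alternatives 918 were within 1.5 times of the reported count, a share that includes counts of 0 that stayed 0. With a threshold of 2, the complement genes called higher numbered 2 in lymph node, 2 in spleen and 5 in thymus. Those called lower then numbered 0, 1 and 0. By Spearman correlation the highest value was 1 for each gene except LYZ, at 0.94, but for FCN1, C3 and CD55 it belonged to genes other than those named, which had at most 0.94, 0.94 and 0.83. Depth limits FCN1 and FCN2 in the wild-type thymus, at 6 and 3 fragments.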
